A study of Homo sapiens with 2 samples.

Results

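Axon guidance ligands and receptors were examined in U87MG, an established line of human glioblastoma cells grown without treatment. The rule took every protein-coding gene named as a semaphorin, plexin or ephrin, the Slits and Robos, both neuropilins, the netrins NTN1 and NTN4, DCC and the UNC5 receptors, and left out the Eph receptors. It found 47 genes among the 14376 protein-coding genes and 21445 genes of all types listed for the mRNA library. Levels are given as FPKM, in which the authors divided each gene's fragments by its length and by the total of the library. The series holds 1 mRNA library and 1 small RNA library of these cells, with no replicate and no control cell, so no value could be set against a spread between samples and no test was run. In a bulk library, fewer cells of a type and less RNA per cell cannot be told apart.

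These genes encode cues that steer growing axons and migrating cells, and the receptors that read them. Semaphorins signal through plexins, with neuropilins as co-receptors for the secreted class 3 semaphorins. Ephrins bind Eph receptor kinases on neighbouring cells and can also signal back into their own cell, Slits bind Robos, and netrins bind DCC, neogenin and the UNC5 receptors. In the nervous system they guide axons across the midline and into target fields, and outside it they take part in vessel growth and in the movement of tumour cells.

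U87MG cells carried a guidance profile led by a few genes. NRP1 was listed at 139 FPKM, NRP2 at 74.8, the secreted ligand SEMA3C at 70.9 and the Slit receptor ROBO1 at 70.6, and these 4 were the only members among the 1000 highest protein-coding genes. At 66.83 FPKM or more lay 8.51% of the members and 6.58% of all protein-coding rows, so that count is near the share over all rows. The first 3 held 50.3% of the FPKM summed over the members, the first 5 held 68.8% and the first 10 held 83.3%. At the other end, the ephrin EFNB3 was listed at 0.0385 FPKM, the netrin receptor DCC at 0.0839, SEMA5B at 0.0878 and EFNA1 at 0.0944.

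Most members lay lower than the typical listed coding gene. Of the 47 members, 29 (61.7%) were at 1 FPKM or more, against 77.5% of protein-coding rows, and 12 were at 10 FPKM or more, against 43.8% of those rows. These shares, and the medians that follow, cover only genes with a row. A row was present for 88.7% of the family symbols but for 68.4% of RefSeq protein-coding symbols. The gap between members and coding rows therefore depends in part on which genes were listed. At 1 FPKM or more were 29 of 53 family symbols, and 11139 coding rows beside 20056 RefSeq symbols, nearly the same share. At 10 FPKM or more were 12 family symbols and 6291 coding rows, and there the family share stayed lower. Coding rows and RefSeq symbols do not match one to one. The median was 1.89 FPKM over the members and 7.82 FPKM over all protein-coding genes. On the scale of log2(FPKM + 1) these medians were 1.53 and 3.14. The members together held 0.151% of the protein-coding FPKM sum. Just above 1 FPKM lay SEMA6D (1.25), EFNA4 (1.22) and EFNB1 (1.05), and just below it SEMA6A (0.632), UNC5D (0.572) and ROBO4 (0.557).

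**Figure D1:**
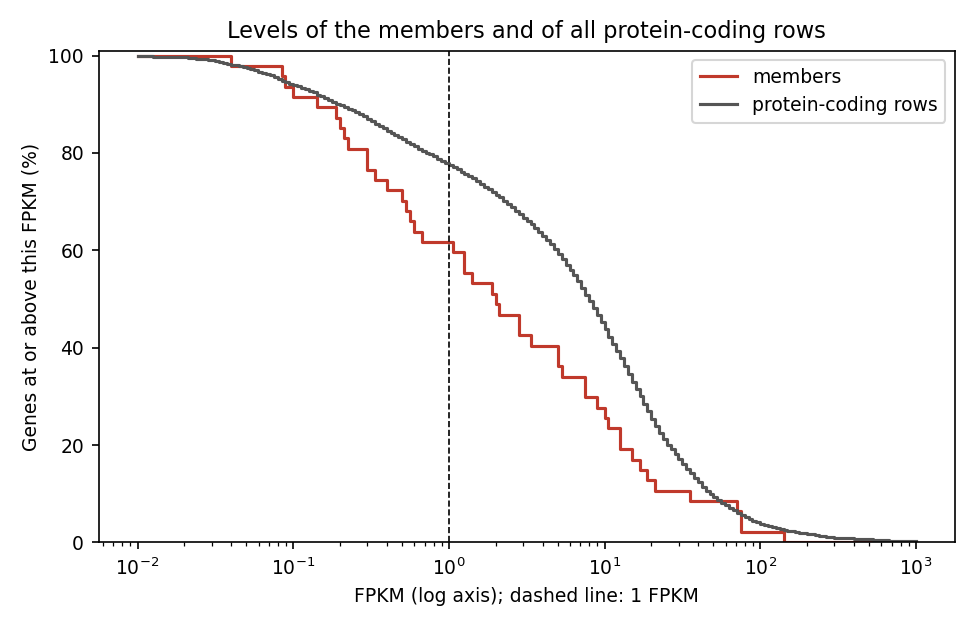
Share of genes at or above each FPKM (vertical axis, %) against FPKM (log axis) for the 47 members and for the 14376 protein-coding rows of 1 library. The line of the members lies below that of all coding rows over most of the range, with 61.7% against 77.5% at 1 FPKM.

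The mesenchymal markers looked at were high in the library, and few markers of mature glia reached 1 FPKM. Among all protein-coding rows 77.5% reached 1 FPKM and 43.8% reached 10 FPKM. All 6 mesenchymal markers were at 10 FPKM or more, from COL1A1 (476) up to CD44 (560), SPARC (626) and VIM (2420). Of 7 astrocyte markers 2 reached 1 FPKM, GJA1 (143) and SLC1A3 (19.3), with SLC1A2 at 0.8995, GFAP at 0.331 and no row for S100B, AQP4 and ALDH1L1. Of 6 neuronal markers 3 reached 1 FPKM, TUBB3 (43.5), SNAP25 (16.3) and MAP2 (1.37). SYT1 was at 0.238 and RBFOX3 at 0.0940 FPKM, and STMN2 had no row. Among 7 endothelial markers TEK (1.23) alone reached 1 FPKM, CDH5, ESAM, VWF and TIE1 were below 0.1 FPKM, and PECAM1 and CLDN5 had no row. Of 6 immune markers the lysosomal protein CD68, which is not confined to immune cells, was at 52.3 FPKM, CSF1R at 1.51 and CD14 at 0.347, while PTPRC and CX3CR1 had no row. Oligodendrocyte markers reached 1 FPKM in 0 of 6, with MYRF at 0.416, CNP at 0.334 and MBP at 0.285 FPKM and no row for MOG and OLIG2.

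Among the secreted class 3 semaphorins, SEMA3C stood well above the others. SEMA3C, known for guiding neural crest and cortical axons, was listed at 70.9 FPKM and held 80.05% of the sum of its class. SEMA3A, the prototype of a secreted axon repellent, followed at 15.9 FPKM, so that SEMA3C was 4.46 times as high. SEMA3E, a ligand that binds plexin D1 without a neuropilin, was at 1.35 FPKM. SEMA3G (0.215) and SEMA3D (0.200) lay below 1 FPKM, and SEMA3C was 354 times as high as SEMA3D. SEMA3F had no row. SEMA3B was listed at 0.333 FPKM as a processed transcript, not as a coding gene, and is therefore not a member. An antisense gene of SEMA3F, SEMA3F-AS1, was listed at 1.02 FPKM.

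Of 13 membrane-bound semaphorins, 7 (53.8%) reached 1 FPKM, against 77.5% of all protein-coding rows. SEMA7A, which is held in the membrane by a lipid anchor and binds integrins and plexin C1, was the highest at 34.2 FPKM. It held 39.2% of the sum of this group and stood at percentile 85.2 of protein-coding genes. Class 4 followed with 4 of its 6 members at 1 FPKM or more: SEMA4B at 18.4, SEMA4F at 7.32, SEMA4C, a plexin B2 ligand, at 7.26, and SEMA4D, a plexin B1 ligand first known from lymphocytes, at 4.98. SEMA4G (0.284) and SEMA4A (0.137) were below 1 FPKM. In class 5, SEMA5A was at 12.0 FPKM and its paralogue SEMA5B at 0.0878. Class 6, transmembrane ligands of the class A plexins, was low throughout, with SEMA6D (1.25) the only one of its 4 members at 1 FPKM or more; SEMA6A was at 0.632, SEMA6B at 0.514 and SEMA6C at 0.332. The summed FPKM was 38.3 for class 4 and 2.73 for class 6.

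Plexins, the signalling receptors of the semaphorins, reached 1 FPKM in 7 of 9 cases (77.8%), close to the 77.5% of all protein-coding rows. The highest, PLXNB2, held 38.0% of their sum. PLXNB2 was at 21.0 FPKM, 1.995 times the level of PLXND1 (10.5), the receptor of SEMA3E. All 4 class A plexins were above 1 FPKM: PLXNA1 was at 9.55, PLXNA3 at 5.07, PLXNA2 at 4.80 and PLXNA4 at 1.89. PLXNB1, a SEMA4D receptor, was at 1.82 FPKM and PLXNB3, a SEMA5A receptor, at 0.479. PLXNC1, the plexin that binds SEMA7A, was the lowest at 0.199 FPKM.

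The neuropilins were the highest receptors. NRP1, which also binds forms of VEGF, was 1.86 times as high as NRP2, and both exceeded every plexin. Together they held 37.8% of the FPKM summed over all members. NRP1 ranked 378 and NRP2 ranked 823 among the protein-coding genes. Both are also abundant in endothelium; of the 5 endothelial markers with a row, TEK was at 1.23 FPKM and the other 4 were below 0.1, PECAM1 and CLDN5 had no row, and the VEGF receptor KDR was at 3.29 FPKM with no row for FLT1. Their part in the neuropilin levels was not tested. The authors' table gives a length of 60 for NRP1 and 931 for NRP2, in no stated unit. The length listed for SEMA4G, 127, likewise lies far below those of the other class 4 semaphorins, 761 to 862. Whether these lengths entered the FPKM is not given in the sources used here, and the level of NRP1 carries that uncertainty, as does that of SEMA4G.

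**Figure D2:**
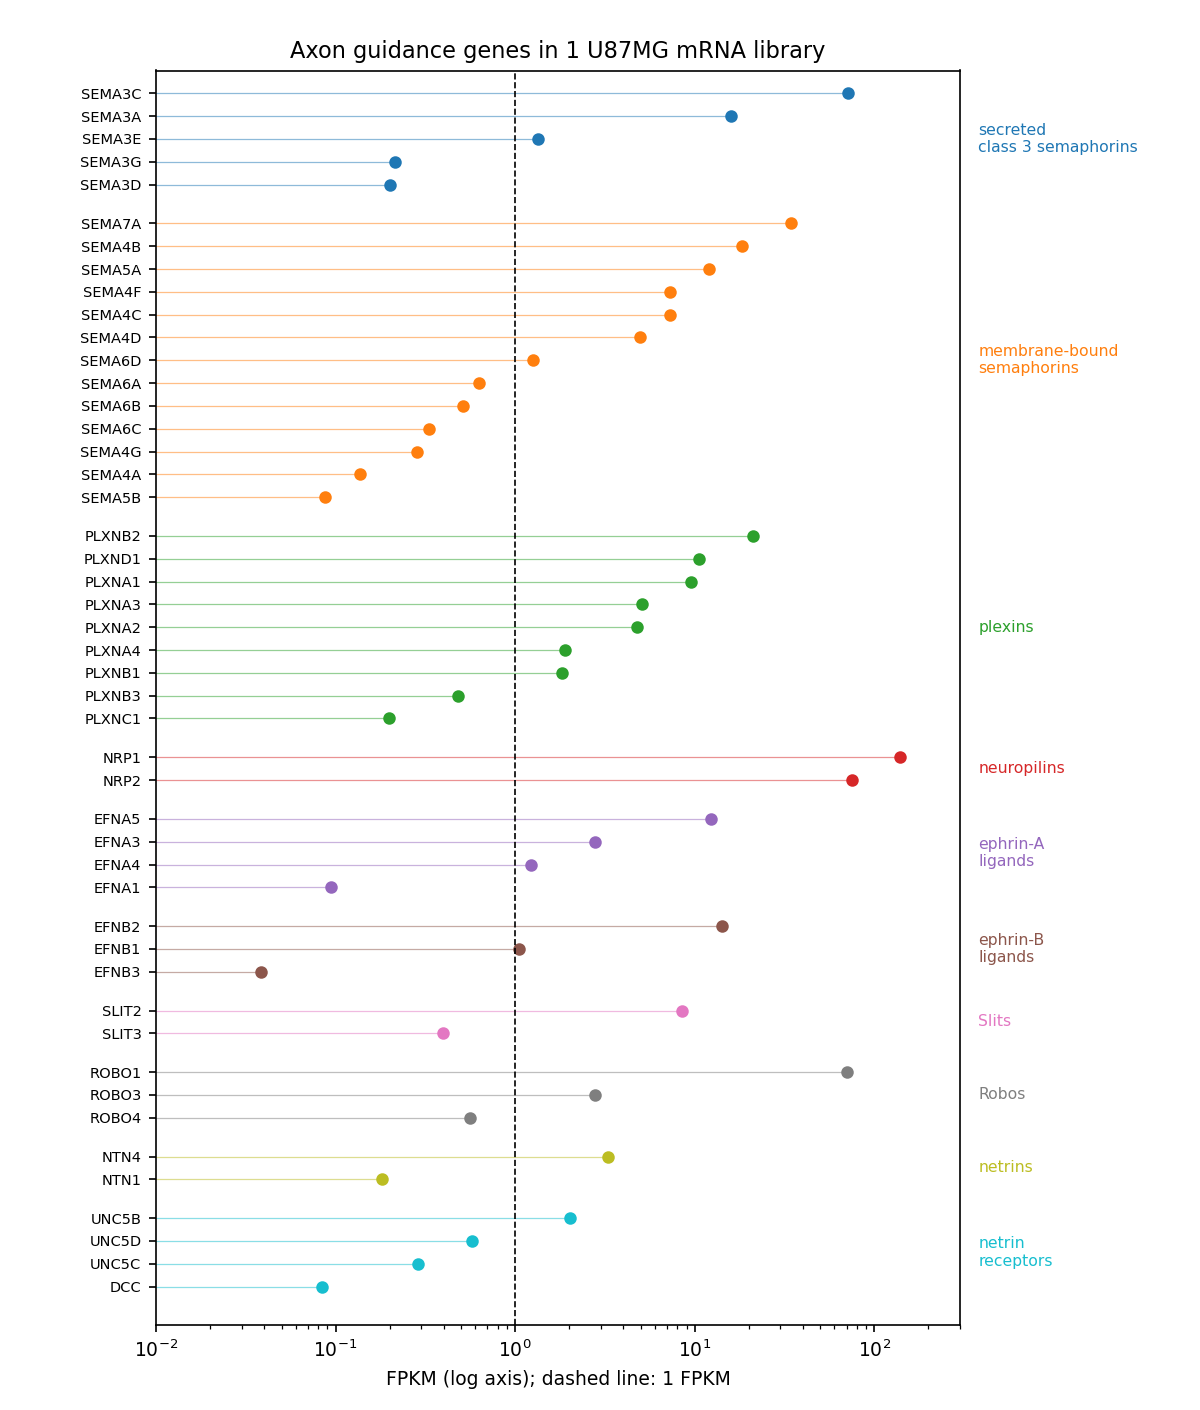
FPKM (log axis) of each of the 47 members in 1 library, grouped by role and sorted within each group. NRP1, NRP2, SEMA3C and ROBO1 lie at the right between 70.6 and 139 FPKM, and 18 members lie left of the dashed line at 1 FPKM.

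In several families 1 member carried most of the summed FPKM. Among the 7 role groups with 3 or more members, the highest member held over 50% of the sum in 5 and over 90% in 2, the Robos and the ephrin-B ligands. The membrane-bound semaphorins and the plexins were the groups of this size in which no member held 50%. The neuropilins, Slits and netrins had 2 members each, so that the higher one holds at least 50% by construction. Such shares were not computed for other small groups of genes, so these counts are not a result about these families.

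Ephrins were led by 1 member of each class. EFNA5, an ephrin-A held in the membrane by a lipid anchor, was at 12.3 FPKM and held 74.9% of the ephrin-A sum, 4.40 times the level of EFNA3 (2.79). EFNA4 was at 1.22 and EFNA1 at 0.0944 FPKM, and EFNA2 had no row. EFNB2, a transmembrane ephrin that marks arteries, was at 14.2 FPKM and held 92.9% of the ephrin-B sum, 13.5 times the level of EFNB1 (1.05). EFNB3 was the lowest of all members.

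Their receptors had a median of 3.51 FPKM over those with a row, against 7.82 FPKM over all protein-coding rows. Of 14 Eph receptors 10 had a row and 6 reached 1 FPKM, none of them 10 FPKM. Among all protein-coding rows 77.5% reached 1 FPKM and 43.8% reached 10 FPKM. EPHB2 (9.23), EPHA4 (6.84) and EPHA2 (5.57) were the highest, and EPHA6, EPHA10, EPHB3 and EPHB6 had no row. EFNB2 was therefore listed above each of its Eph receptors considered here, EPHB2, EPHA4, EPHB1 (4.72) and EPHB4 (4.09). EFNA5 likewise lay above EPHA2, EPHA4, EPHA5 (2.94), EPHA7 (0.350) and EPHA3 (0.0996).

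In the Slit system a single ligand and a single receptor were prominent. SLIT2, a secreted repellent of midline axons, was at 8.52 FPKM and SLIT3 at 0.398, a ratio of 21.4, and SLIT1 had no row. A readthrough gene that joins SLIT1 to its neighbour, ARHGAP19-SLIT1, was listed at 0.561 FPKM. ROBO1 was at 70.6 FPKM and held 95.5% of the Robo sum. ROBO3, which modulates midline crossing, was at 2.78 FPKM and ROBO4, the endothelial member, at 0.557, and ROBO2 had no row. ROBO1 was 25.4 times as high as ROBO3 and 8.28 times as high as SLIT2.

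SLIT2 and SLIT3 each contain a gene of the same miRNA, miR-218, in the RefSeq gene order, and both miRNA genes lie on the strand of their host. The mature miRNA is printed as the authors' table spells it, with the seed (bases 2 to 8) in capitals, and after it the SLIT2-specific opposite arm; the hairpins are those of RefSeq (GRCh38.p14), with the mature miR-218-5p in capitals. They show that miR-218-5p is spelled alike in both hairpins.
miR-218-5p: tTGTGCTTgatctaaccatgt
miR-218-1-3p: aTGGTTCCgtcaagcaccatgg
MIR218-1, inside SLIT2, chromosome 4: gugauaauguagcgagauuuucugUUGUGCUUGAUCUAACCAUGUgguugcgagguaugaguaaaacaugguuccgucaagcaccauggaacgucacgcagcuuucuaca
MIR218-2, inside SLIT3, chromosome 5: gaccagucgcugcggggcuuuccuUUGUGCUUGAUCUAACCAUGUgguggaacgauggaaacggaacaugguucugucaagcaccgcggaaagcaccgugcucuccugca

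miR-218-5p had 3729 of 11785001 miRNA reads, 0.0316% (exact Clopper-Pearson 95% interval 0.0306 to 0.0327%, counting error only, as the library had no stated molecular identifiers and PCR copies count as reads). It ranked 90 among the 1224 listed miRNAs. Because its bases are the same in both hairpins, its reads cannot be assigned to SLIT2 or to SLIT3. The opposite arms do differ: miR-218-1-3p, from the SLIT2 copy, had 6 reads, and miR-218-2-3p, from the SLIT3 copy, had no row. SLIT2 was at 8.52 FPKM and SLIT3 at 0.398 in the mRNA library. ROBO1 has been reported as a miR-218 target, and in these libraries the miRNA had 3729 reads while ROBO1 was at 70.6 FPKM; levels at 1 condition do not bear on repression.

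Other genes of these families hold miRNA genes with few reads or none listed. The hosts looked at were 8 of the 53 family symbols, with 9 miRNA genes and 13 mature names, of which 5 had a row. miR-4636, inside SEMA5A and on its strand, had 28 reads with the sequence shown next, seed in capitals.
miR-4636: aACTCGTGttcaaagcctttag
Its host SEMA5A was at 12.0 FPKM. miR-6881-3p, inside SEMA7A, had 1 read although SEMA7A was the highest membrane-bound semaphorin at 34.2 FPKM, and miR-6872-5p, inside SEMA3B, which is not a member, had 1 read. No row was listed for miR-608 (SEMA4G), miR-585 (SLIT3), miR-3923 (ROBO1, on the opposite strand) or miR-4528 (DCC).

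Netrins and their receptors were the lowest of the systems. NTN4, a netrin of basement membranes that binds laminins, was at 3.27 FPKM, whereas NTN1, the classical netrin of the spinal cord floor plate, was at 0.182, a ratio of 17.9. UNC5B, a receptor of vessels and neurons, was the only receptor of this group at 1 FPKM or more, with 2.02 FPKM. UNC5D was at 0.572, UNC5C at 0.287 and DCC, the attractive netrin receptor, at 0.0839 FPKM, and UNC5A had no row. The 4 listed receptors summed to 2.96 FPKM, 0.523% of the member sum. UNC5D contains the pseudogene LSM12P1, which was listed at 24.6 FPKM.

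Of 11 netrin partners outside the rule, 8 had a row and 6 reached 1 FPKM, led by RGMB (86.4), a repulsive guidance molecule that binds neogenin, PTK2 (27.4), the focal adhesion kinase, and NTNG1 (15.3), a membrane-anchored netrin-G. The share at 1 FPKM or more over all protein-coding rows was 77.5%. The neogenin gene NEO1 was at 4.33 FPKM. DSCAM, RGMA and DRAXIN had no row.

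Known ligand and receptor pairs were then read side by side. Of 44 pairs taken from textbook knowledge, 22 had both partners at 1 FPKM or more, 13 had the receptor only, 5 the ligand only and 4 neither. Both genes had a row in 38 of the 44 pairs. In the others, a gene with no row was counted as not reaching 1 FPKM, although its level was not measured. The counts of receptor only, ligand only and neither therefore include pairs whose state is unknown. Pairs share genes and are not independent. Semaphorin pairs had both partners in 13 of 22 cases and ephrin pairs in 8 of 12. As 77.5% of all protein-coding rows were at 1 FPKM or more, many pairs of unrelated genes would also have both. The share for such pairs was not computed, so these counts are not a result about pairing. In the Slit system the only pair of 5 with both partners was SLIT2 with ROBO1, and in the netrin system no pair of 5 had both. All 5 netrin pairs have NTN1 (0.182 FPKM) as the ligand, so that count was fixed by 1 gene. NTN4 (3.27 FPKM) was in no pair, and its partners were not examined.

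SEMA3C had all 3 of its receptors considered here, with NRP1 at 139, NRP2 at 74.8 and PLXND1 at 10.5 FPKM beside 70.9 FPKM of the ligand. SEMA3A at 15.9 FPKM had NRP1 far above it, and PLXNA1, PLXNA2 and PLXNA4 below it. SEMA7A at 34.2 FPKM stood beside 0.199 FPKM of PLXNC1 and 348 FPKM of ITGB1, the beta-1 integrin, its other receptor. SEMA5A at 12.0 FPKM had its receptor PLXNB3 at 0.479. NTN1 and DCC were both below 1 FPKM. In 10 of the 22 pairs with both partners the receptor was the higher.

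**Figure D3:**
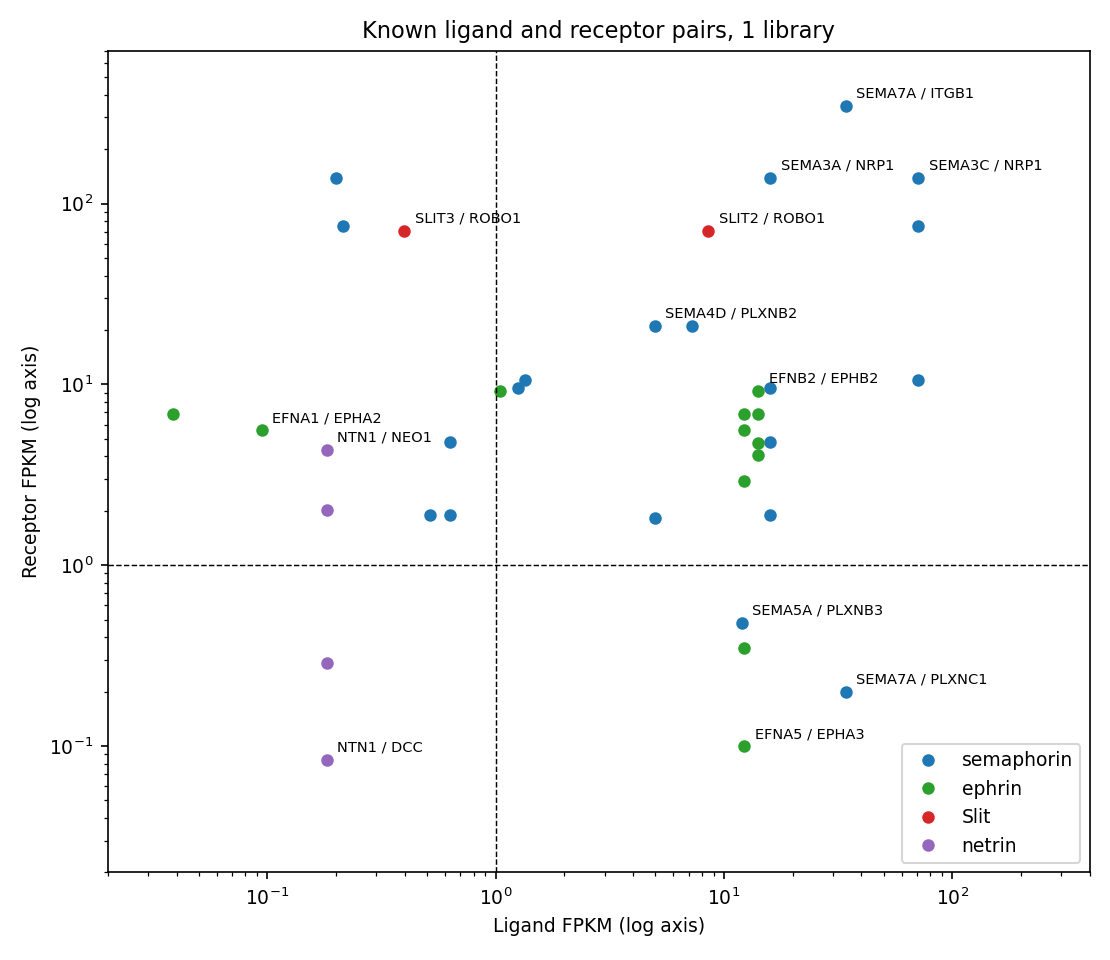
Receptor FPKM against ligand FPKM (both log axes) for the 38 of 44 known pairs in which both genes had a row, coloured by system; dashed lines mark 1 FPKM. SEMA3C with NRP1 lies at the upper right, SEMA7A with PLXNC1 at the lower right, and all 4 netrin pairs at the left because NTN1 was at 0.182 FPKM.

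Most of the genes looked at that act downstream of these receptors had a row, as did 68.4% of RefSeq protein-coding symbols. Of 22 plexin and neuropilin effectors 19 had a row, and all 19 were at 1 FPKM or more and 17 at 10 or more, led by RHOA (292), FYN (111) and RAP1B (106); DPYSL5, RND1 and FES had no row. DPYSL2, the collapsin response mediator first found in SEMA3A signalling, was at 68.6, and MICAL2, an actin-oxidising enzyme, at 104 FPKM. All 13 Slit-Robo effectors were at 1 FPKM or more and 8 at 10 or more, led by CAP1 (170.002), CDC42 (105) and ABL1 (59.4). Most of these genes serve other pathways too, and the shares over all protein-coding rows were 77.5% at 1 FPKM and 43.8% at 10 FPKM. Of 13 further co-receptors 12 had a row and 10 reached 1 FPKM, with ITGB1 (348), MET (45.4) and SDC1 (31.6) highest and no row for FLT1. Among 6 proteases that cut or shed guidance proteins, ADAMTS1 (71.5), ADAM10 (68.04) and ADAM17 (14.9) were highest, FURIN, which cuts class 3 semaphorins, was at 10.6 FPKM, and PCSK6 had no row.

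Some members that are neighbours in the genome differed strongly in level. Neighbouring pairs of other coding genes were not compared, so this is a description only. On chromosome 7, SEMA3E, SEMA3A and SEMA3D follow each other with no coding gene between them, and SEMA3C lies 3 coding genes away from SEMA3E in the RefSeq order. In that order, from SEMA3C on, they were listed at 70.9, 1.35, 15.9 and 0.200 FPKM. On chromosome 1, EFNA4, EFNA3 and EFNA1 are adjacent, at 1.22, 2.79 and 0.0944 FPKM. ROBO3 (2.78) and ROBO4 (0.557) are adjacent on chromosome 11. ROBO2, with no row, is next to ROBO1 on chromosome 3.

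The region around the transcription start was compared with the level, using the 300 bases that RefSeq (GRCh38.p14) gives for each start, 250 before it and 50 after. The motif searched was the dinucleotide CG, which reads the same on both strands, and where a gene had several starts the window richest in CG was used. Such a window was found for 39 of the 47 members. The median was 34.5 CG in the 26 members at 1 FPKM or more and 20 CG in the 13 members below it, and over all protein-coding genes with a window these medians were 29 and 18. Across the 39 members Spearman's rho between CG count and FPKM was 0.510, and Pearson's r with log2(FPKM + 1) was 0.468; across 10503 protein-coding genes these were 0.249 and 0.268. These values describe genes of 1 library that share base composition and are not independent.

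The motif GGGCGG, counted on both strands, lies partly over CG. It was found in the window of 32 of the 39 members (82.1%) and of 71.3% of all protein-coding genes with a window. ROBO1 lay apart, with 15 CG and no GGGCGG at 70.6 FPKM, and so did PLXNB2, with 14 CG at 21.0 FPKM. SEMA4D (4.98 FPKM) and SEMA3E (1.35 FPKM) had the fewest CG of the 39 members, 6 each, though both were above 1 FPKM. NRP1, SEMA3A, NTN1, UNC5B, UNC5D, SEMA6A, SEMA6B and EFNB3 have no window in the table used.

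**Figure D4:**
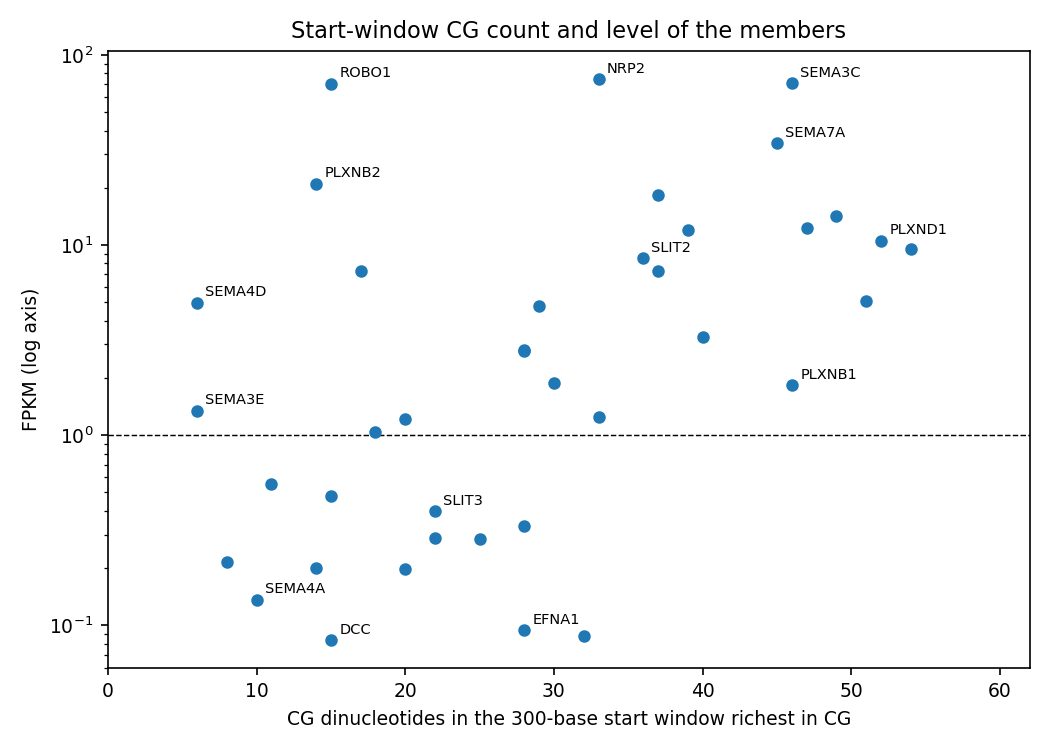
FPKM (log axis) of 39 members against the number of CG dinucleotides in the start window richest in CG. SEMA3C, with 46 CG and 70.9 FPKM, lies at the upper right, ROBO1 and PLXNB2 lie high with 15 and 14 CG, and the members below 1 FPKM (dashed line) have 8 to 32 CG.

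The chromosome 7 semaphorins show the range of these windows, and 4 of them are printed 5′ to 3′ on the gene's strand with each CG in capitals. The contrast is between both starts of SEMA3C, 1 rich and 1 poor in CG, and the windows of its low neighbours SEMA3E and SEMA3D. Of the 2 SEMA3E starts in the table, the window with 6 CG is printed and the other, with 1 CG, is not. Which start the cells used cannot be read from a level per gene.
SEMA3C, chr7:80919002-80919301, minus strand, 46 CG: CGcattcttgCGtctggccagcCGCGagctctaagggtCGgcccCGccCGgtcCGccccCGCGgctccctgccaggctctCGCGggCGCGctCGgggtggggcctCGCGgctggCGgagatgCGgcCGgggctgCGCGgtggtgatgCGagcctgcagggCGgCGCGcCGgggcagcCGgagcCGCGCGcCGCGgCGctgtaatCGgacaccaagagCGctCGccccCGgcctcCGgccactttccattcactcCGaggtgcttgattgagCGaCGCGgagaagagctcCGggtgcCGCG
SEMA3C, chr7:80922340-80922639, minus strand, 2 CG: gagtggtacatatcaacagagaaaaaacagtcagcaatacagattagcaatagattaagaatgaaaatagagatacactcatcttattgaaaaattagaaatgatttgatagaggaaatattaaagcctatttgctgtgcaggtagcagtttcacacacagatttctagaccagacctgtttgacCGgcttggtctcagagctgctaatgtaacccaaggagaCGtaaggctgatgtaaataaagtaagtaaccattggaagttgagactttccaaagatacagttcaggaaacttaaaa
SEMA3E, chr7:83649090-83649389, minus strand, 6 CG: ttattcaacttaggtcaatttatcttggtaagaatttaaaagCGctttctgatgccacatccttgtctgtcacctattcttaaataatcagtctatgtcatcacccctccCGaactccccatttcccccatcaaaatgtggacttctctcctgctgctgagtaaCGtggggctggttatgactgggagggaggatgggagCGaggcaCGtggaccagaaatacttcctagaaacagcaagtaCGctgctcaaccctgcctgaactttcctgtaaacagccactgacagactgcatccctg
SEMA3D, chr7:85187007-85187306, minus strand, 14 CG: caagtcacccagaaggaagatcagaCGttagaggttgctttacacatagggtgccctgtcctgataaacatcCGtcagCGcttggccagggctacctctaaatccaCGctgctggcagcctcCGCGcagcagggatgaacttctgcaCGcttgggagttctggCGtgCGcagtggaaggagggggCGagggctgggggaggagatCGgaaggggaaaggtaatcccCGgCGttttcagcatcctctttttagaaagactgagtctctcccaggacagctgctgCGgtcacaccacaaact

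In these windows GGGCGG was found on both strands together 3 times in the CG-rich window of SEMA3C and 0 times in the other 3. SEMA3C was at 70.9 FPKM, SEMA3E at 1.35 and SEMA3D at 0.200.

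Some members overlap other listed genes between their RefSeq start and end, introns included, and the counting is not stated to use strand. Overlap of exons was not examined, so whether reads of these genes were mixed is not known. SEMA4G (0.284 FPKM) overlaps MRPL43, listed at 18.6 FPKM. SEMA4D (4.98) overlaps SECISBP2 (18.2), PLXNA3 (5.07) overlaps LAGE3 (8.57) and PLXNC1 (0.199) overlaps CEP83 (6.24). The antisense genes UNC5B-AS1 (0.461) and SEMA6A-AS1 (0.898) and the intronic SLIT2-IT1 (0.304) were listed as well; SEMA6A-AS1 was above SEMA6A at 0.632 FPKM.

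Of the 53 symbols that make up these families, 47 had a protein-coding row, 88.7%, against 68.4% of the 20056 RefSeq protein-coding symbols. SEMA3F, EFNA2, SLIT1, ROBO2 and UNC5A had no row and SEMA3B had a row of another type. Every listed gene had an FPKM above 0, so a missing row is not a measured 0 and was given no upper limit.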

How the data were processed

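The mRNA values are FPKM deposited by the authors for each Ensembl gene, per the file headers, for 1 library of untreated cells. The small RNA values are read counts deposited by the authors for each mature miRNA, not normalized. The deposited table also holds a length per gene, taken as another value of unknown unit and used in no calculation. Per the submitters' processing notes, cutadapt was used and the builds were hg19 and GRCh37; the aligner, FPKM program, annotation and strand setting are not stated there or in the labels. The table gives no fragment total, so depth is unknown for the mRNA library and its values have no interval.

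Members were found by symbol and gene type, and all 47 were matched to RefSeq symbols. Thresholds were 1 and 10 FPKM, with a pseudocount of 1 on the log2 scale. RefSeq genes on GRCh38.p14 gave gene order and overlaps; sequences are RefSeq's unless credited to the authors' table. Every member is named with its value, and of each list of partners, effectors and processing enzymes the 3 highest genes and those with no row; any other name, cell type markers included, was picked with its value known. The members, lists and pairs were chosen with earlier results of these data known. Alternatives were other thresholds, scalings and pseudocounts. Calculations used Python 3.11.15, numpy 2.4.6, pandas 2.3.3 and scipy 1.17.1. The rule for members was checked on a made-up list of symbols. A known shift added to values resampled from the library was recovered, which holds by construction and does not check the reported results. The piRNA table was not used.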

Additional observations from a re-analysis of the deposited data

How the results depend on the processing

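With 1 library, no replicate could be left out, and depth limits the mRNA values to an unknown degree. No paired analysis was possible because each library is the only one of its kind. The count of 29 members at 1 FPKM or more became 33 at a threshold of 0.5, 17 at a threshold of 5, 19 when all listed genes were scaled to sum to 1000000 and 35 when the protein-coding genes were; with SEMA3B taken in, an alternative chosen after seeing the data, it was 29. Over all protein-coding rows the first 4 of these settings gave 82.9%, 59.3%, 64.6% and 85.1%. The median of log2(FPKM + 1), 1.53, became 0.992 with a pseudocount of 0.1, 1.20 with the 5 missing symbols at 0, 1.92 over the 43 members at 0.1 FPKM or more, and 2.59 after scaling to the coding sum; over protein-coding rows it was 3.14, and 2.99, 3.29 and 4.45 under the pseudocount, the filter and the scaling. Protein-coding symbols with no row were not set to 0 in the same way, so the value of 1.20 has no coding counterpart. The members' share of the coding sum, 0.151%, became 0.0160% of the sum of all rows, 0.171% without ribosomal protein genes and 0.114% without NRP1. The median member stood at percentile 28.1 among coding rows and 44.04 among all rows. The 22 pairs with both partners at 1 FPKM or more became 25 and 12 at thresholds of 0.5 and 5, and 16 and 27 under the scalings to all rows and to coding rows, also chosen after seeing the data. A threshold or a common scaling leaves the order of the members as it is by construction.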
